A study of Rattus norvegicus with 399 samples.

Results

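The liver response to the highest concentration of 1,2-dichlorobenzene (1,2-DCB) was examined in 15 of the 399 libraries of a rat study. The members were chosen by their labels: left liver lobe, treatment with 1,2-DCB, 500 ppm (5 rats, F601 to F605) or 0 ppm (10 control rats), with no library marked as failing quality control. All animals were female Sprague-Dawley rats 9 weeks old, and tissue was taken on study day 5. The controls received 0 ppm of the same compound. The study exposed rats to 6 concentrations of each of a pair of dichlorobenzenes and sampled 5 organs, and the sources used here do not state the route of exposure. RNA was measured with TempO-Seq on the Rat S1500+ panel, in which pairs of detector oligos are ligated on a target transcript and the ligated products are counted.

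1,2-DCB is a chlorinated solvent that cytochrome P450 enzymes oxidise to electrophilic epoxides and quinones, which glutathione traps. Hepatocytes meet damaged proteins with heat shock chaperones and the proteasome, and meet amino acid shortage or other stress through phosphorylation of eIF2 and the transcription factor ATF4. The same cells secrete most plasma proteins, including albumin, complement components, clotting factors and lipoproteins, and they carry out much of the body's amino acid breakdown.

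The deposited, attenuation-adjusted counts of the 40 liver libraries of the 1,2-DCB rats summed, in units of 1000000 counts, to between 23.5 and 66.9 (median 39.5). These sums are not read numbers. After each probe's counts were divided by their common whole-number step, the sums were 3.75 to 10.3 (median 6.23) in the same units. Of 2654 probes, 2019 probes for 1995 genes passed a low-count filter and were tested. Any 2 of the 15 libraries correlated at 0.914 or more across probes on the log2 scale, and no 2 were alike enough to be one library (highest 0.993). The lowest correlation was 0.977 within the controls and 0.974 within the exposed rats, and the highest between the groups was 0.953. Of 10 hepatocyte markers 9 were on the panel and passed the filter. Their summed levels were 463879 to 677538 CPM (counts per 1000000 counts of a library, scaled here with TMM factors) in controls and 472687 to 589067 CPM at 500 ppm. As given below, 8 of the 9 fell and 1, Apoa1, rose, so these sums hide opposite changes. The 5 heart and ovary markers on the panel did not pass the filter, and the kidney and lung markers listed were not on the panel. Control rat F8 stood at an extreme of the 10 controls in several of the genes named here, among them ceruloplasmin (1194 CPM against a control median of 331 CPM for Cp).

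At an adjusted p below 0.05 (edgeR quasi-likelihood test over all 2019 probes, Benjamini-Hochberg), 1368 probes differed between 500 and 0 ppm, which is 67.8% of those tested. Of these, 707 rose (35% of probes tested) and 661 fell (32.7%). More than 2-fold changes were found for 319 risen and 326 fallen probes. The 5 exposed rats all lay above every control for 389 probes (19.3%) and below every control for 346 probes (17.1%). The median log2 fold change over all probes was 0.03. It was 0.44 when libraries were scaled by their totals alone, with 1017 probes risen and 397 fallen, since the TMM factors were 1.10 to 1.31 at 500 ppm and 0.78 to 1.02 in controls. With 67.8% of probes called, a list of genes is read below against the shares of 35% and 32.7%. Counts given with library totals are to be read against 1017 risen and 397 fallen of the 2019 probes instead. Genes of glutathione and antioxidant defence, sterol and fatty acid synthesis and the cell cycle are left aside except where noted.

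**Figure D1:**
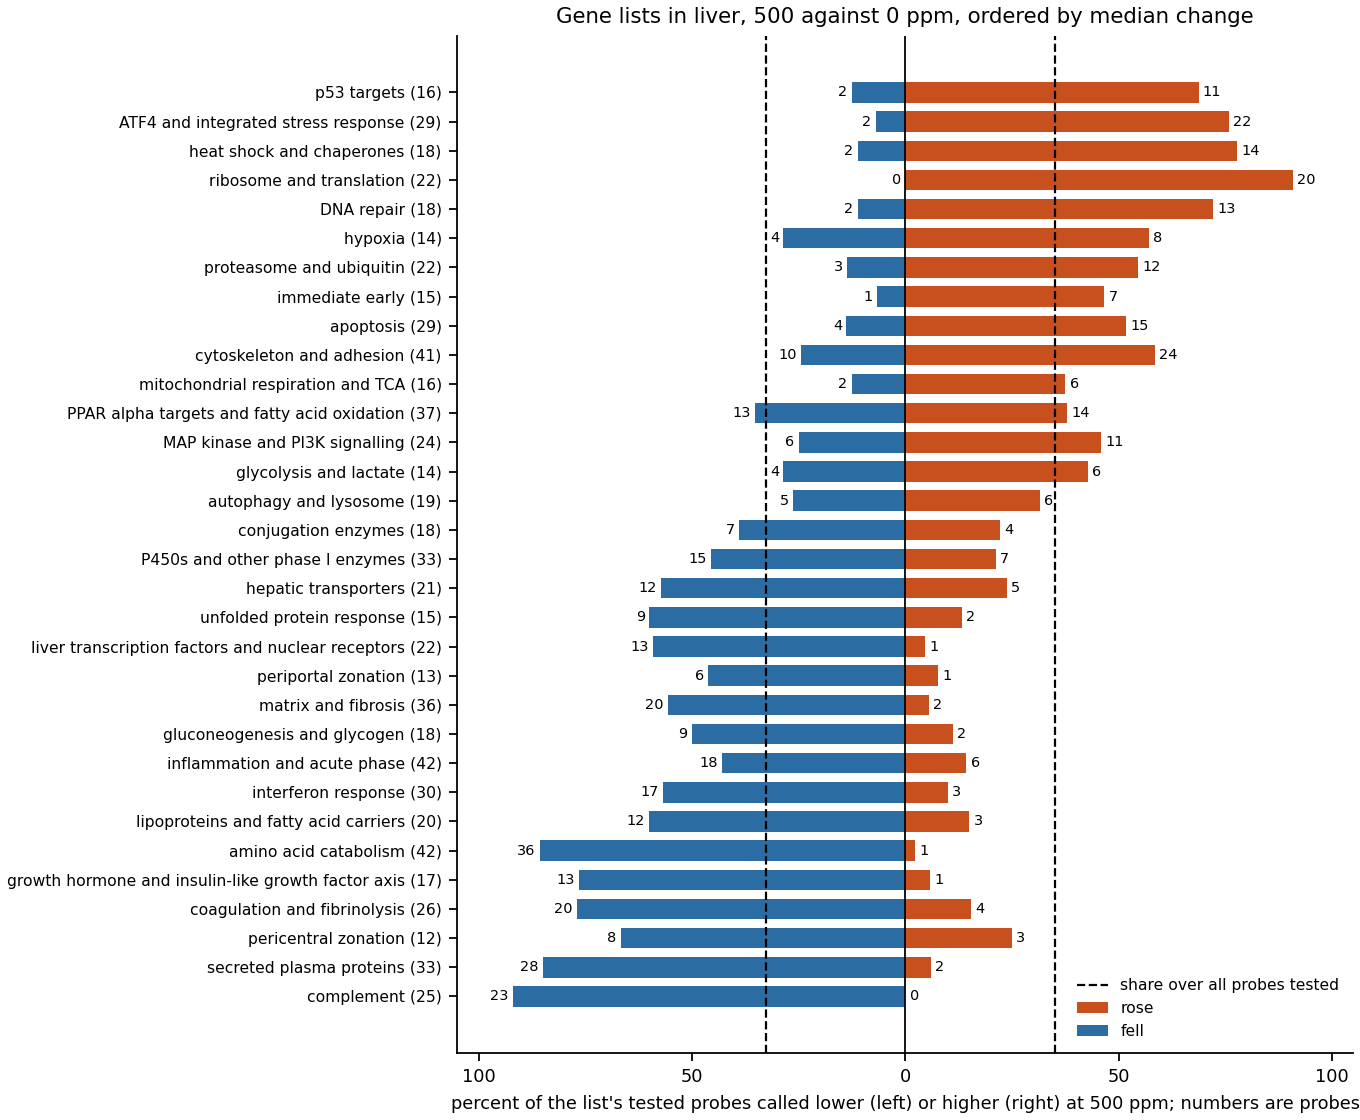
Share of each gene list's tested probes that were called higher (orange, right) or lower (blue, left) at 500 ppm than at 0 ppm in liver; the number in brackets is the probes tested, numbers at the bar ends are probes called, and dashed lines mark the shares over all 2019 probes. The bars run from 23 fallen and 0 risen of 25 complement probes to 11 risen and 2 fallen of 16 p53 target probes.

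Heat shock genes rose. Of 18 tested probes for chaperones and heat shock proteins (20 such genes are on the panel), 14 rose and 2 fell, with a median log2 fold change of 0.91 against 0.03 over all probes. The promoters of 2 risen members with 3 inverted heat shock units, and that of Hspb1 with pairs of such units, are shown because they hold these letters. They are windows of the RefSeq promoter table (GRCr8), printed 5′ to 3′ on the gene's strand, with the matched letters in capitals.
Hspb1, chr12:26432372-26432451, minus strand: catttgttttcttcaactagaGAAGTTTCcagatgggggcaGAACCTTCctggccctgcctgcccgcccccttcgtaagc
Hspa8, chr8:50080444-50080503, plus strand: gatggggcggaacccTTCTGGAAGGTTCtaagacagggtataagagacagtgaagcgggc
Hspd1, chr9:64084228-64084287, minus strand: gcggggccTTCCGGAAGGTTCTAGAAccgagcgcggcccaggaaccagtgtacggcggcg
The heat shock factor HSF1 binds alternating inverted units of this kind. The letters GAANNTTCNNGAA or TTCNNGAANNTTC, searched on both strands from 250 bases before to 50 bases after each gene start, occurred in 267 of 33469 promoters (0.798%), in 7 of 1573 promoters of tested genes (0.445%) and in 2 of the 16 matched promoters of the list (12.5%). The shorter pair GAANNTTC occurred in 8.59% of all promoters, in 6.61% of those of tested genes and in 7 of the 16 (43.8%). Those 7 belonged to Bag3, Dnajb1, Dnajb6, Fkbp4, Hspa8, Hspb1 and Hspd1. Of these, Fkbp4 fell (log2 -0.46) and Dnajb6 was not called (log2 0.56). The other pair, TTCNNGAA, occurred in 8.77%, 6.48% and 3 of the 16 (18.8%). The 3-unit letters contain both shorter pairs, so the counts overlap, and a match is a description of the sequence and not a measured binding site.

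Hspb1, the small heat shock protein HSP27, was among the most changed genes of the liver. Its level was 176, 158, 96.2, 86.4 and 154.2 CPM in rats F601 to F605, against 2.76 to 5.60 CPM in the controls (median 3.34). All 5 exposed rats lay more than an order of magnitude above the control range, a 35.4-fold rise (log2 5.15 ± 0.22 SE, adjusted p = 7.76e-21 by edgeR). Zfand2a encodes a proteasome-associated zinc finger protein induced by arsenite. Its level was 8.82, 50.8, 16.7, 20.6 and 143.3 CPM in F601 to F605, against 1.61 to 3.28 CPM in controls (median 1.94). The groups did not overlap, but the exposed rats differed from each other by more than an order of magnitude, and the fold change of 22.2 (adjusted p = 8.37e-13) fell to 11.4 without F605. Hspa1a, the inducible HSP70, has a near-identical copy, Hspa1b, whose own probe did not pass the low-count filter. The Hspa1a probe may count both. It stood at 2.95, 18.2, 4.27, 2.97 and 73.6 CPM, against 1.08 to 4.85 CPM in controls. Only F602 and F605 exceeded the control range, and the fold change of 10.2 (adjusted p = 7.15e-07) was 3.63 without F605. Zfand2a was not a member of the heat shock list. The members Hspa4, Hspd1, Hspa8 and Bag3 had smaller fold changes than Hspb1, Zfand2a and Hspa1a. Hspa4, an HSP110 family nucleotide exchange factor, had 29.5 to 49.1 CPM at 500 ppm and 15.4 to 19.98 CPM in controls (log2 fold change 1.16 ± 0.09). Hspd1, the mitochondrial chaperonin HSP60, was at 221, 248, 210.1, 187 and 236 CPM in the exposed rats and 101.4 to 133.8 CPM in controls (log2 0.96 ± 0.09). Hspa8, the constitutive HSC70, was at 16109, 35926, 27005, 37882 and 52735 CPM against 9616 to 16816 CPM, with F601 inside the control range (log2 1.27 ± 0.17). Bag3, a co-chaperone of HSP70, was above all controls in 4 of 5 rats (log2 1.22 ± 0.20), and Cryab, the small chaperone αB-crystallin, went from a control median of 0.0874 CPM to 0.845 to 2.18 CPM.

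Proteasome and ubiquitin genes were higher as well: 12 of 22 probes rose and 3 fell (median log2 fold change 0.38). Usp14, a deubiquitinase that binds the regulatory particle of the proteasome, rose from 16.97 to 21.8 CPM in controls to 40.4, 67.3, 55.9, 75.1 and 66.8 CPM (3.17-fold, adjusted p = 2.71e-18). The proteasome subunits Psmd4, a ubiquitin receptor, and Psma5, of the core ring, rose 2.23-fold and 2.04-fold with no overlap between groups. The immunoproteasome subunits Psmb9 and Psmb10, which are interferon-inducible, fell, with log2 fold changes of -1.05 ± 0.16 and -1.05 ± 0.18, and all 5 exposed rats lay below all controls for both. Metallothioneins, small cysteine-rich proteins that bind zinc and copper, rose with the chaperones. Mt2a had 26.7, 36.8, 14.6, 30.4 and 39.7 CPM against 0.724 to 5.22 CPM in controls (15.1-fold, adjusted p = 4.86e-11), and Mt1a rose 3.72-fold; these close relatives may share probe signal.

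Targets of ATF4 and the integrated stress response formed the second group of risen stress genes, with 22 of 29 probes higher and 2 lower (median 0.96). The promoters of 3 risen members carry the C/EBP-ATF composite letters TGATGNAA, which ATF4 binds together with C/EBP proteins, and are shown for that reason from the same RefSeq table.
Trib3, chr3:161275534-161275593, minus strand: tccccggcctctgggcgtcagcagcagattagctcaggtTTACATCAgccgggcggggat
Fgf21, chr1:105221487-105221546, minus strand: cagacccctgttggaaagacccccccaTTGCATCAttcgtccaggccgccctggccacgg
Pycr1, chr10:106420913-106420972, minus strand: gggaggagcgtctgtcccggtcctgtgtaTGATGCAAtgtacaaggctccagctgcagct
Capitals mark the letters or their reverse complement. They occurred in 4 of the 18 matched promoters of the list (22.2%; Pck2 is the other), in 2.35% of the promoters of tested genes and in 3.98% of all promoters.

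Trib3, a pseudokinase induced by ATF4 and CHOP, was at 2.23, 11.7, 6.29, 5.73 and 8.29 CPM against 0.272 to 0.770 CPM in controls, a 12.9-fold rise (adjusted p = 5.48e-16). Asns, asparagine synthetase, stood at 4.69, 9.29, 14.3, 8.71 and 8.62 CPM against 0.387 to 0.899 CPM (12.7-fold, adjusted p = 4.65e-18). Every exposed rat was above every control for both genes. Psat1, of serine synthesis, rose 4.25-fold, Pycr1, of proline synthesis, 2.64-fold, and Fgf21, the fasting and stress hormone of the liver, 9.09-fold from a low level (control median 0.175 CPM). Ddit3, which encodes the transcription factor CHOP, had 27.98, 107.3, 18.4, 26.7 and 132.9 CPM against 8.25 to 17.3 CPM. All rats were above the controls, but F602 and F605 were several times higher than the other three (log2 2.16 ± 0.27, adjusted p = 1.51e-08). Ppp1r15a (GADD34), the phosphatase subunit that reverses eIF2 phosphorylation, rose 5.52-fold (3.38-fold without F605). Atf3, a stress-induced partner in this network, was above all controls in 4 of 5 rats (17.4-fold, and 7.98-fold without F605). In the unfolded protein response list, which serves the endoplasmic reticulum, 2 of 15 probes rose and 9 fell. With library totals 4 rose and 2 fell. Pdia6, a disulfide isomerase, was at 2.41 to 3.36 CPM against 4.30 to 9.26 CPM (log2 -1.16 ± 0.15), and Edem1, which hands misfolded glycoproteins to degradation, fell by 0.94 on the log2 scale. Calr (calreticulin) fell by 0.63, a call that was lost with library totals (log2 -0.24, adjusted p = 0.101 by edgeR).

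**Figure D2:**
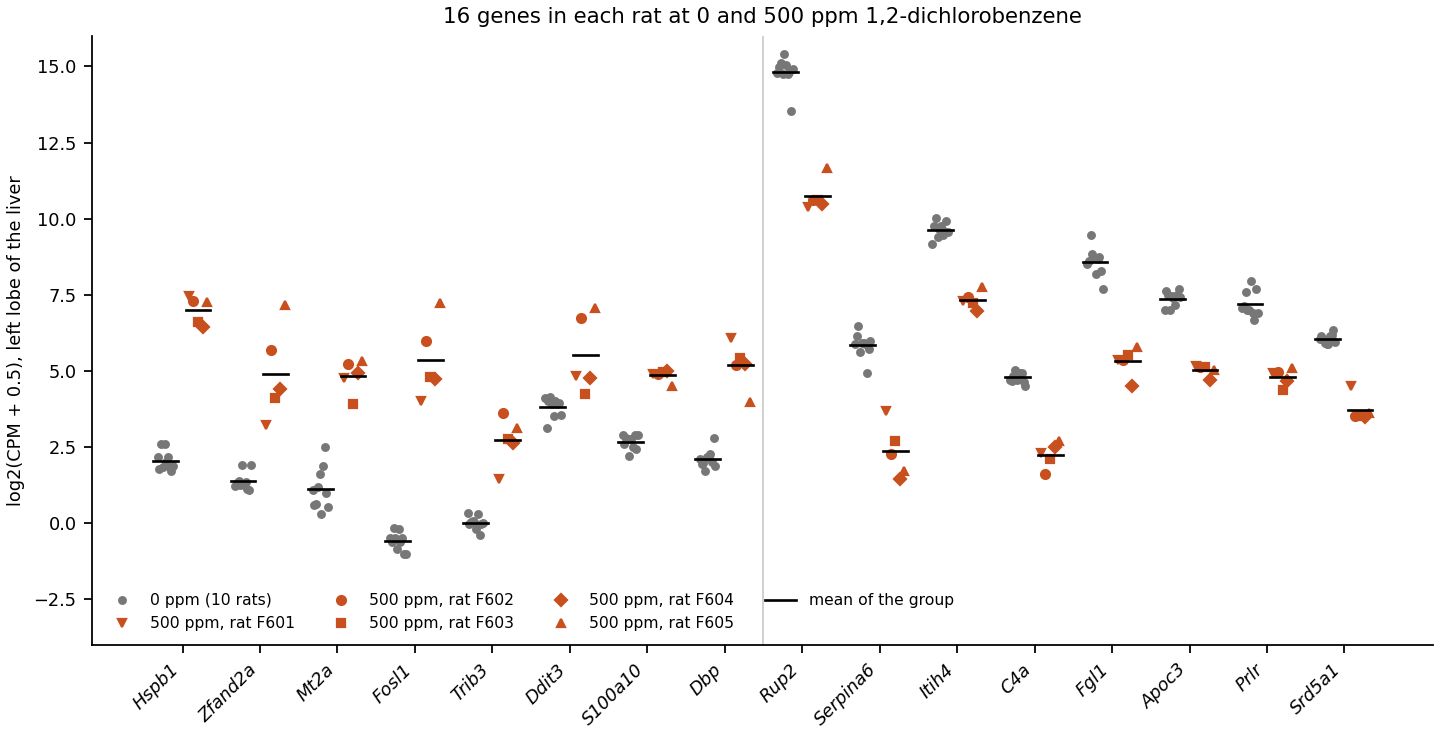
Level of 16 genes in each liver library as log2(CPM + 0.5): grey points are the 10 control rats, orange symbols the 5 rats at 500 ppm (one shape a rat) and black lines the group means. The 8 genes on the left rose and the 8 on the right fell; rats F602 and F605 are the highest for Zfand2a, Fosl1 and Ddit3, while F605 is the lowest for Dbp.

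Among immediate early genes, 7 of 15 probes rose and 1 fell (median 0.35). Fosl1, the AP-1 subunit FRA-1, had the largest fold change among genes with at least 20 CPM in either group outside the lists left aside. It was at 15.5, 63.5, 27.6, 26.4 and 148.7 CPM, against 0 to 0.403 CPM in controls (median 0.184). The change was 313-fold (log2 8.29 ± 0.53, adjusted p = 1.07e-15) and 188-fold without F605. Maff, a small MAF partner of NRF2 and AP-1 proteins, rose 55.4-fold, though from a control median of 0.0234 CPM (33.1-fold without F605 and 84.4-fold without control rat F1). Mafk rose 3.06-fold, the growth-arrest factor Klf6 3.75-fold and the ERK phosphatase Dusp5 4.73-fold. The classical early genes were not called: the log2 fold change was -0.23 ± 0.70 for Fos, 0.35 ± 0.34 for Jun and -0.52 ± 0.54 for Egr1. Of those, Jun was called with library totals (log2 0.76, adjusted p = 0.041) and Egr1 was called lower without F605 (log2 -1.52, adjusted p = 0.0178, edgeR), while the sign of Fos turned under several settings. F605 was the highest of the 5 rats for all 7 risen probes of the list, and 5 probes rose without F605.

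p53 targets rose in 11 of 16 probes and fell in 2 (median 1.12, 21 such genes on the panel). With each rat left out in turn, the risen count ran from 9 (without F605) to 12 (without F601). F605 was the highest of the 5 rats for 8 of the 11 risen probes. Mdm2, the ubiquitin ligase of p53 and itself a p53 target, was at 36.6, 47.7, 34.03, 32.1 and 57.5 CPM against 8.64 to 12.5 CPM, with no overlap. The pro-apoptotic pore protein Bax was at 29.7 to 38.4 CPM against 14.5 to 19.2 CPM (2.09-fold, adjusted p = 2.54e-12). Aen, a p53-induced nuclease, rose 3.71-fold, and Ccng1 (cyclin G1) 4.69-fold at below 1.4 CPM. Tnfrsf12a, the TWEAK receptor of regenerating liver, went from 0 to 0.181 CPM in controls to 0.326 to 1.23 CPM, with F605 far above the others (16.1-fold, and 28.2-fold without control rat F7). In the wider apoptosis list 15 of 29 probes rose and 4 fell. Bak1, the second pore protein, rose 2.67-fold and the BH3-only gene Bcl2l11 (BIM) 4.26-fold, whereas Bmf, another BH3-only gene, had 0.205 to 0.494 CPM against 1.59 to 3.25 CPM (6.08-fold lower, adjusted p = 1.31e-14). Of 18 DNA repair probes 13 rose and 2 fell (median 0.69).

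Ribosome and translation genes rose almost throughout: 20 of 22 probes rose and 0 fell (median 0.69). Nop56, a core protein of the box C/D particles that methylate ribosomal RNA, was at 36.5, 57.4, 48.9, 50.97 and 99.001 CPM against 7.30 to 20.4 CPM (3.98-fold, adjusted p = 6.57e-14). The nucleolar proteins Npm1 and Ncl rose 2.30-fold and 2.31-fold. The ribosomal proteins themselves moved by less, with Rps6 at 6004 to 7343 CPM against 3786 to 4529.6 CPM (log2 0.66 ± 0.06) and Rpl19 at log2 0.64 ± 0.09; both have processed pseudogenes. All 5 exposed rats were above all 10 controls for each of these 5 genes.

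Cytoskeleton and adhesion genes rose in 24 of 41 probes and fell in 10 (median 0.32), and with library totals 28 rose and 2 fell. S100a10, the light chain that binds annexin A2, was at 29.4, 29.2, 30.8, 31.8 and 22.4 CPM against 4.13 to 7.03 CPM (4.81-fold, adjusted p = 2.99e-19). Its partner Anxa2 rose 6.86-fold, from a control median of 0.335 CPM. Anxa7 rose 9.45-fold and the tubulin Tubb6 6.83-fold, both also from under 1 CPM. Krt8, the hepatocyte keratin, was at 53.8 to 77.6 CPM against 15.4 to 23.6 CPM (3.51-fold), and its partner Krt18 rose 2.80-fold. A pair of calcium- or sugar-binding proteins split the rats differently. Lgals3 (galectin-3) was at 84.5, 30.9, 100.9, 48.4 and 29.4 CPM against 10.1 to 27.6 CPM, and S100a6 at 691, 150.2, 968, 222 and 129.9 CPM against 91.9 to 177 CPM. F601 and F603 were the highest for both, and F602 and F605, which led Zfand2a, Hspa1a and Ddit3, lay within or just above the control range. The glycolytic enzyme Aldoa rose in both of its tested probes (3.86-fold and 3.46-fold), and its other probes on the panel did not pass the low-count filter. The glucose transporter Slc2a1 rose 6.96-fold and the stress gene Ndrg1 3.44-fold.

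Clock genes moved in both directions. Dbp, the PAR-bZIP factor driven by CLOCK and BMAL1, was at 67.2, 36.01, 42.8, 36.7 and 15.3 CPM against 2.78 to 6.495 CPM in controls (10.2-fold, adjusted p = 7.63e-12). Nr1d2 (REV-ERBβ) rose 2.10-fold. The activators were lower: Npas2 was at 0.399 to 0.840 CPM against 3.69 to 5.63 CPM (7.75-fold lower, adjusted p = 2.69e-15) and Arntl (BMAL1) was 2.67-fold lower, as was the DBP antagonist Nfil3 at 2.98-fold. In the kidneys of the same rats (joint fit of both organs, 5 rats at 500 ppm and 9 controls), Npas2 (log2 -3.23 ± 0.26), Arntl (-2.10 ± 0.24), Dbp (1.89 ± 0.33) and Nr1d2 (1.11 ± 0.20) moved in the same directions at 500 ppm. The sources used here do not state the hour at which each rat was killed, and its part in these values was not tested.

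Secreted plasma proteins fell as a block. Of 33 tested probes 28 fell and 2 rose, with a median log2 fold change of -1.22. In a piece of liver, fewer cells of a type and less RNA per cell cannot be told apart. Rup2, a rat urinary protein, was at 1324, 1559.5, 1561, 1435 and 3263 CPM against 11838 to 43949.5 CPM (16.5-fold lower, adjusted p = 1.54e-16). Itih4, an inter-alpha-trypsin inhibitor heavy chain, was at 155.5, 174, 149.3, 124.98 and 214 CPM against 571 to 1039 CPM (4.92-fold lower), and Itih1 was 3.71-fold lower at an adjusted p of 9.40e-22. Groups did not overlap for any of these genes. Mug1, an alpha-macroglobulin protease inhibitor with close paralogs, averaged 19052 ± 4202 CPM (SD, n = 5) against 78513 ± 9957 CPM (n = 10), and Apcs (serum amyloid P) 8.31 ± 1.83 against 35.8 ± 4.77 CPM. Serpina6, corticosteroid-binding globulin, was at 12.2, 4.32, 6.06, 2.27 and 2.80 CPM against 30.4 to 89.5 CPM (10.8-fold lower, adjusted p = 2.60e-12), and A1bg was 18.1-fold lower. The copper carrier Cp was at 81.2 to 143.3 CPM against 234 to 1194 CPM. Albumin moved less than most: Alb was at 72584, 58213, 48038, 44675 and 58471 CPM against 70427 to 128909 CPM, with F601 inside the control range (1.70-fold lower, adjusted p = 2.88e-05). Transferrin (Tf), which took 19.8% to 32.1% of all counts in the 40 livers, fell by 0.55 on the log2 scale, and that call was lost with library totals (log2 -0.15, adjusted p = 0.0747 by edgeR) and with the minimum of 20 CPM (-0.19, adjusted p = 0.0730). A pair of probes went the other way: Apoa1, the main protein of high-density lipoprotein, reached 226556, 226888, 216077, 223799 and 146493 CPM against 41687 to 80729 CPM (3.74-fold), and the acute-phase protein Orm1 rose 1.53-fold.

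Complement fell in 23 of 25 probes and rose in none (median -1.38). C4a was at 4.49, 2.58, 3.86, 5.12 and 5.93 CPM against 22.1 to 32.5 CPM, and C1s, the protease that cleaves C4, at 7.20, 4.15, 5.98, 5.09 and 5.29 CPM against 23.4 to 37.7 CPM. These were 6.22-fold and 5.39-fold lower (adjusted p = 4.38e-17 and 2.78e-18 by edgeR) with no overlap. C4a has a near-identical copy, C4b, whose own probe did not pass the low-count filter. The membrane attack component C8g was 2.85-fold lower and the inhibitor Cfi (factor I) 2.11-fold lower. Among coagulation and fibrinolysis genes 20 of 26 probes fell and 4 rose (median -1.03). Plg, plasminogen, averaged 766 ± 38.99 against 1839 ± 144.2 CPM, and the clotting factors F9 and F10 were 2.57-fold and 2.49-fold lower. Fgl1, a fibrinogen-like protein secreted by hepatocytes, was at 40.7, 40.7, 45.8, 22.2 and 55.2 CPM against 207 to 709.8 CPM (9.73-fold lower, adjusted p = 2.82e-11). The palindrome GTTAATNATTAAC of the liver factor HNF1, allowing 1 mismatch, was found in 1 of 27 promoters of the secreted list (Gc), in 0 of 14 of complement and 0 of 22 of coagulation genes, and in 0.14% of all promoters.

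Lipoprotein and fatty acid carrier genes fell in 12 of 20 probes and rose in 3 (10 and 5 with library totals). Apoc3, an inhibitor of lipoprotein lipase, was at 35.2, 34.9, 34.3, 25.8 and 32.1 CPM against 127.2 to 208 CPM (5.18-fold lower), and Lipc (hepatic lipase) was 4.04-fold lower, in both cases with no overlap. Apoa2 and Apoc1 were 2.48-fold and 2.27-fold lower, so that Apoa1 and the other apolipoproteins named here moved apart. Fabp2, the intestinal fatty acid binding protein, rose 3.01-fold.

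Amino acid catabolism fell in 36 of 42 probes and rose in 1 (median -0.81), and in 24 and 3 with library totals. Kynu, kynureninase of tryptophan breakdown, was at 1.79, 1.82, 1.23, 1.09 and 0.868 CPM against 4.42 to 7.496 CPM (4.33-fold lower, adjusted p = 3.94e-14). Dpys, dihydropyrimidinase, was 2.52-fold lower, with F601 at 93.05 CPM and the other 4 rats at 58.1 to 64.2 CPM, all under the control range of 143.8 to 216 CPM. Among its members that act on sulfur amino acids, Cth, which makes cysteine from cystathionine, was 2.84-fold lower, Cdo1, which oxidises cysteine, 2.45-fold, and Bhmt, which remethylates homocysteine, 2.25-fold (4 of 5 rats below all controls). Hpd, of tyrosine breakdown, was 2.25-fold lower and Aass, of lysine breakdown, 1.99-fold. F601 had the highest level of the 5 exposed rats for 29 of the 36 fallen probes.

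Neighbouring carbohydrate and nitrogen genes divided. Glul, glutamine synthetase of the pericentral hepatocytes, was at 25.6, 12.8, 22.6, 11.7 and 9.94 CPM against 39.7 to 69.1 CPM (3.33-fold lower, adjusted p = 6.67e-12), while the urea cycle enzyme Arg1 was at 65.04 to 108.02 CPM against 40.4 to 60.6 CPM (1.78-fold higher). Of 7 urea cycle and glutamine probes 4 fell and 2 rose (2 and 2 with library totals). Those that fell were Glul, the urea cycle enzymes Otc (1.43-fold lower) and Ass1 (log2 -0.38) and the aspartate carrier Slc25a13 (1.85-fold), and Asns rose with Arg1. The calls of Otc (adjusted p = 0.165 by edgeR) and Ass1 were lost with library totals, and that of Ass1 also with the minimum of 20 CPM and without F603 (adjusted p = 0.0795). Gluconeogenesis and glycogen genes fell in 9 of 18 probes and rose in 2 (6 and 4 with library totals), with Fbp1 (fructose bisphosphatase) 1.85-fold lower and the glycogen-targeting subunit Ppp1r3b 2.28-fold lower. Pklr, the liver pyruvate kinase, was 4.64-fold lower, whereas Aldoa, above, rose. Of 12 pericentral probes 8 fell and 3 rose, and of 13 periportal probes 6 fell and 1 rose (4 and 2 with library totals).

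The growth hormone axis fell in 13 of 17 probes and rose in 1 (median -0.83), and in 10 and 2 with library totals. Prlr, the prolactin receptor, was at 30.2, 30.7, 20.3, 25.2 and 34.1 CPM against 102.1 to 247 CPM (5.41-fold lower, adjusted p = 8.41e-10). Socs2, a growth hormone target and feedback inhibitor, was 4.36-fold lower, Ghr, its receptor, 2.47-fold, Igf1 4.27-fold and Igfals, the carrier of circulating IGF1, 2.55-fold; none of these groups overlapped. Egf was 3.53-fold lower. The single risen probe was Igf2r, the IGF2 and mannose 6-phosphate receptor, at 6.44 to 9.12 CPM against 2.60 to 4.41 CPM (2.43-fold).

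Liver transcription factors and nuclear receptors fell in 13 of 22 probes and rose in 1. With library totals 6 fell and 7 rose, against 397 fallen and 1017 risen over all 2019 probes. Onecut1 (HNF6) was 2.37-fold lower, the glucocorticoid receptor Nr3c1 2.03-fold, the bile acid receptor Nr1h4 (FXR) 1.78-fold and the shared partner Rxra 1.65-fold. All 5 exposed rats lay below all controls for each of them. Ppard (PPARδ) was at 0.0380 to 0.112 CPM against 0.325 to 0.923 CPM (8.23-fold lower). Hnf4a, at 25.2 to 31.05 CPM against 36.1 to 53.4 CPM, fell by 0.61 on the log2 scale, a call that was lost with library totals (-0.22, adjusted p = 0.146 by edgeR) and with the minimum of 20 CPM (-0.24, adjusted p = 0.0581).

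Of 33 probes for P450s and other phase I enzymes 15 fell and 7 rose (10 and 10 with library totals). Cyp2e1, an ethanol-inducible P450 that oxidises small solvents, was at 1075, 1149, 1322, 1168 and 1092 CPM against 1942 to 4507 CPM (2.32-fold lower, adjusted p = 7.02e-09). Cyp1a2 was 3.23-fold lower. Cyp2b1, the classical target of the receptor CAR, was at 3.91, 22.4, 2.72, 1.82 and 7.25 CPM against 0.0595 to 0.8288 CPM (20.4-fold, and 10.5-fold without F602); it has a near-identical relative in the rat. Por, the reductase that passes electrons to P450s, rose 2.87-fold. Of 18 conjugation enzyme probes 4 rose and 7 fell, and with library totals 8 rose and 4 fell. Sult1c3, a sulfotransferase, was at 0.0190 to 0.168 CPM against 1.52 to 6.67 CPM, 50.4-fold lower (adjusted p = 1.66e-08), while Ugt2b7 and Ugt1a1, glucuronosyltransferases, rose 5.19-fold and 2.68-fold. Hepatic transporters fell in 12 of 21 probes and rose in 5 (3 without F602 or without F604). Abcb11, the bile salt export pump, was at 28.3, 24.2, 23.9, 21.1 and 25.1 CPM against 54.7 to 71.6 CPM (2.504-fold lower, adjusted p = 7.75e-18). The uptake carrier Slco1b2 was 2.92-fold lower and the glutamate transporter Slc1a2 8.15-fold lower. Of 8 bile acid probes 5 fell and 0 rose; the side-chain enzymes Amacr and Acox2 were 2.98-fold and 2.58-fold lower. Srd5a1, a steroid 5α-reductase, was at 22.3, 10.9, 10.9, 10.8 and 11.7 CPM against 58.7 to 80.2 CPM (5.00-fold lower, adjusted p = 2.78e-17), with F601 apart from the other 4 rats.

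Of 37 probes for PPARα targets and fatty acid oxidation 14 rose and 13 fell (21 and 5 with library totals), shares near those over all probes (35% and 32.7%). Acaa2, a mitochondrial thiolase, was at 11283, 12768, 7649, 18372 and 7251 CPM against 1350.0 to 4753 CPM (3.19-fold). Vnn1, a pantetheinase, rose 3.58-fold, Ech1 2.61-fold and the carnitine transferase Cpt2 1.89-fold, and Acot1 rose 35.4-fold from a control median of 0 CPM (57.4-fold without control rat F2). The medium-chain dehydrogenase Acadm, at 42.7 to 47.7 CPM against 66.4 to 95.6 CPM, was 1.82-fold lower and Hadh 2.41-fold lower. The ketone body gene Bdh1 was 2.16-fold lower.

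Inflammation and interferon genes were lower more often than higher. Of 42 inflammation and acute phase probes 18 fell and 6 rose (13 and 9 with library totals), and of 30 interferon probes 17 fell and 3 rose (8 and 5 with library totals). Cxcl12, a chemokine of stroma and endothelium, was 4.84-fold and 5.17-fold lower by its 2 probes. Mx1 was at 5.18, 0.834, 3.32, 1.22 and 0.812 CPM against 1.70 to 17.6 CPM, and Oas1a at 2.10 to 7.97 against 2.43 to 26.6 CPM, so both overlapped the controls (log2 -1.93 ± 0.49 and -1.70 ± 0.42). Isg20, an interferon-inducible exonuclease, rose 4.06-fold. The non-classical MHC class I gene RT1-S3, one of a large gene family, was 5.11-fold lower. Matrix and fibrosis genes fell in 20 of 36 probes and rose in 2 (10 and 4 with library totals), with Fn1 (fibronectin) 2.95-fold and Col3a1 2.04-fold lower. Inhba and Inhbc, subunits of activins, were 6.87-fold and 2.98-fold lower; Inhba was at 3.20, 3.53, 2.56, 2.32 and 3.75 CPM against 16.4 to 26.4 CPM. Paqr9, a progestin and adipoQ receptor family member, was at 90.5, 74.8, 77.9, 49.5 and 73.1 CPM against 344 to 822 CPM (6.67-fold lower, adjusted p = 1.46e-15).

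Among marker lists of non-hepatocyte cells, all 8 Kupffer cell and macrophage probes fell (median -1.01), and their summed level was 39.8 to 52.6 CPM at 500 ppm against 67.3 to 106.9 CPM in controls. Among them Cd68 was 2.03-fold and C1qb, a complement subunit made by macrophages, 2.24-fold lower. All 5 monocyte probes fell (summed 12.9 to 22.8 against 26.8 to 44.2 CPM), as did 3 of 4 neutrophil probes (2.15 to 3.83 against 4.09 to 11.6 CPM) and both red cell probes (34.1 to 93.2 against 70.2 to 194.8 CPM). Endothelial markers fell in 2 of 5 probes and stellate cell markers in 2 of 4, shares to be read against 32.7% fallen over all probes, and no probe of these lists rose. Neither of the 2 cholangiocyte probes was called, nor was the 1 probe each of platelets and of mesothelium and adipose tissue. Of the 9 hepatocyte markers 8 fell and 1, Apoa1, rose. The part of cell makeup in the falls of the inflammation, interferon, matrix and plasma protein lists was not tested.

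**Figure D3:**
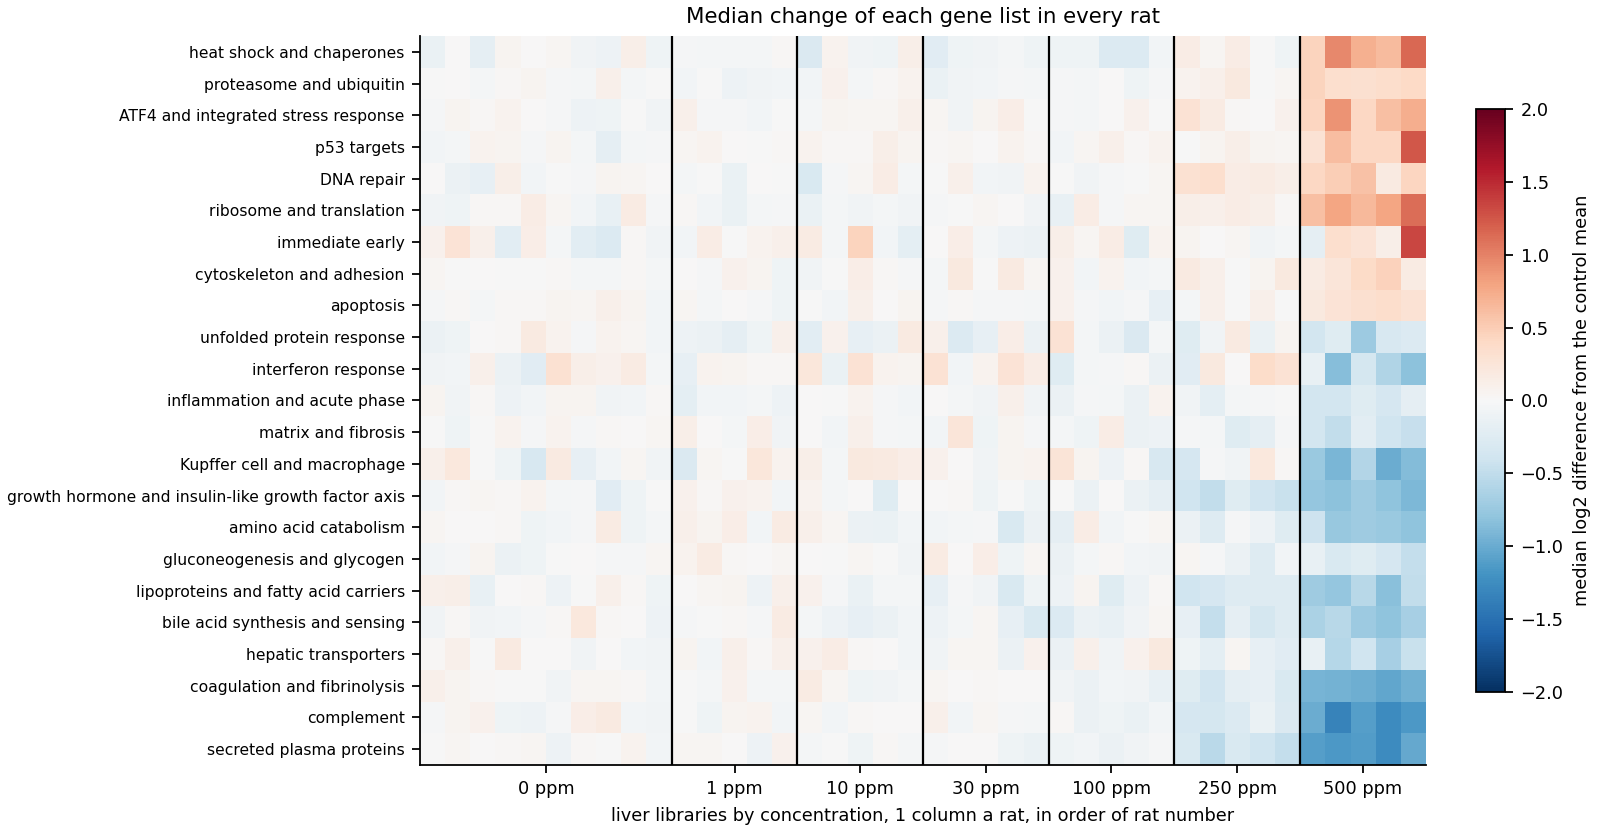
Median log2 difference from the control mean over the tested probes of each gene list (rows) in each of the 40 liver libraries (columns, grouped by concentration); red is higher and blue lower. At 500 ppm F605 is the highest for the heat shock list (1.14), the p53 list (1.24) and the immediate early list (1.33), and F601 the lowest for the heat shock list (0.44) and nearest to controls for amino acid catabolism (-0.41).

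The 5 exposed rats did not respond evenly. F605 was the highest of the 5 for 251 of the 707 risen probes, and F601 was the lowest for 267 of them and the highest for 288 of the 661 fallen probes. For the ribosome list F605 was the highest in 13 of 20 risen probes. The fallen plasma proteins ranked the rats in another way, with F604 the lowest of the 5 in 18 of 28 probes. The median of the list of secreted plasma proteins lay between -1.25 (F604) and -1.02 (F605), a narrower span than that of the immediate early list, from -0.19 (F601) to 1.33 (F605).

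Concentration dependence was examined in the same fit, in which every concentration shares the 10 controls. At 250 ppm, 500 probes were called (24.8%), of which 273 were higher than controls (13.5%) and 227 lower (11.2%). At 100 ppm 43 probes were called (2.13%), 30 of them higher (1.49%), and at 10 ppm 1 (0.0495%). Between 250 and 500 ppm 1065 probes differed (52.7%; 528 higher, 26.2%, and 537 lower, 26.6%). The falls of secreted proteins were already present at 250 ppm in 20 of 33 probes, with complement at 10 of 25 and coagulation at 13 of 26. The chaperone list, by contrast, had 3 risen and 2 fallen probes of 18 at 250 ppm, and the immediate early list none. Itih1 averaged 669 ± 56.7 CPM in controls, 403.8 ± 45.2 at 250 ppm and 181 ± 22.6 at 500 ppm, and was called from 100 ppm upwards, as were Inhba and Paqr9. Zfand2a was at 2.16 ± 0.605, 3.30 ± 0.926 and 48.0 ± 55.6 CPM, and Fosl1 at 0.178 ± 0.138, 0.293 ± 0.283 and 56.3 ± 54.7 CPM. Neither was called at 250 ppm (adjusted p = 0.270 and 0.551, edgeR), and both were called for the step from 250 to 500 ppm (log2 3.86 and 7.61). The other largest rises over that step were Hspa1a (4.55), Hspb1 (4.08) and Mt2a (3.95), and the largest falls were Rup2 (-3.23), Serpina6 (-3.04), C1s (-1.97), RGD1307603 (-1.88) and RT1-S3 (-1.87).

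**Figure D4:**
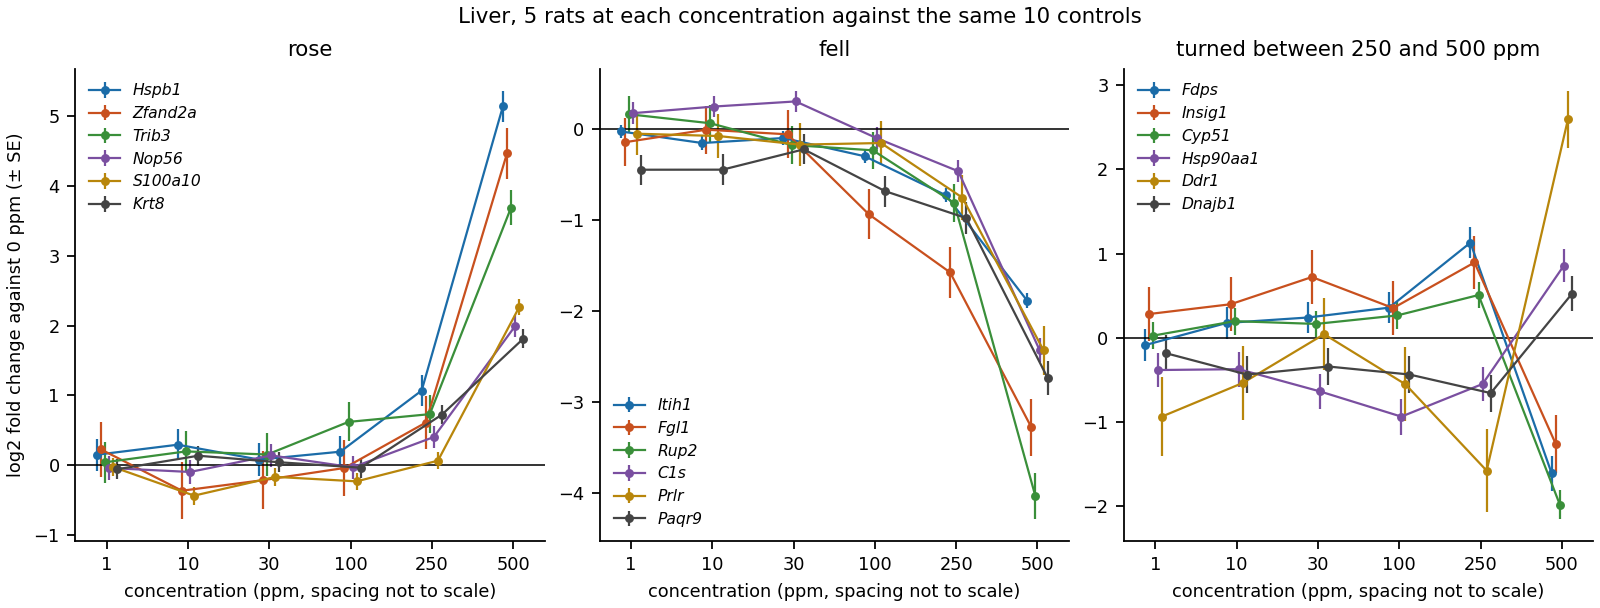
Log2 fold change against the 10 controls with its standard error at 6 concentrations (5 rats each) for genes that rose at 500 ppm, genes that fell and genes called in opposite directions at 250 and 500 ppm. Fgl1 and Paqr9 decline over several concentrations, whereas Zfand2a and S100a10 were at 0.61 and 0.06 at 250 ppm and reach 4.47 and 2.27 at 500 ppm.

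At 250 and 500 ppm, 25 probes were called in opposite directions, against 407 in the same direction. Of the 25, 19 were higher at 250 ppm and lower at 500 ppm, and 10 of these belonged to the cholesterol synthesis list, of whose 16 tested probes 12 rose at 250 ppm and 14 fell at 500 ppm. Fdps, farnesyl diphosphate synthase, averaged 106.4 ± 29.4 CPM in controls, 233 ± 45.3 at 250 ppm and 34.9 ± 9.12 at 500 ppm. Insig1, the sterol-sensing retention protein, averaged 427 ± 199, 794 ± 308 and 179 ± 101.4 CPM, and Cyp51, lanosterol demethylase, 100.5 ± 21.6, 142.96 ± 16.5 and 25.5 ± 8.53 CPM. The reverse turn was seen for chaperones. Hsp90aa1, the inducible HSP90, was lower at 250 ppm (log2 -0.55, adjusted p = 0.0482) and higher at 500 ppm (0.86, adjusted p = 0.000169), and Dnajb1, an HSP40, was at -0.66 and 0.52. The call of Dnajb1 at 500 ppm was lost without F605 (log2 0.08, adjusted p = 0.721 by edgeR) and with limma voom (adjusted p = 0.154). Ddr1, a collagen receptor kinase, averaged 0.177, 0.0576 and 1.08 CPM.

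The kidneys of the same rats gave a reference for which liver changes were shared. In a joint fit of both organs, with 2401 probes tested, 330 probes (13.7%) were called in kidney at 500 ppm. The liver change differed from the kidney change for 1039 probes (43.3%). The liver minus kidney log2 difference was positive for 469 probes (19.5%) and negative for 570 (23.7%). A negative difference includes genes that fell in liver and not in kidney. Of 1367 probes called in liver and tested in both, 866 differed, 191 were called in the same direction in kidney and 66 in the opposite one. The stress genes that led in liver were not called in kidney: the kidney log2 fold change was 0.24 ± 0.75 for Fosl1, 0.05 ± 0.23 for Hspb1, -0.20 ± 0.32 for Zfand2a and 0.42 ± 0.29 for Mt2a, and the liver minus kidney difference was 7.85 ± 1.01, 4.90 ± 0.34, 4.46 ± 0.47 and 3.31 ± 0.44. Fabp2, a fatty acid binding protein, differed by 4.85 ± 1.84. That exceeded its log2 rise in liver, so its log2 fold change in kidney was negative. Fosl1, Hspb1, Zfand2a, Mt2a and Fabp2 reached 20 CPM or more, a minimum added after the values were seen. With no minimum, the 5 largest positive differences among probes called in liver were Fosl1, Ube2t (6.72 ± 1.06), Abcb1b (6.72 ± 0.56), Cyp2b1 (5.67 ± 0.99) and Lgals4 (5.57 ± 1.31), and Ube2t (-2.32 ± 0.71) and Abcb1b (-1.33 ± 0.35) fell in kidney. Large negative differences were those of Sult1c3 (-4.96 ± 0.77), LOC100361706 (-3.59 ± 1.36) and Olr59 (-3.41 ± 0.65), each with a control mean under 4 CPM in liver. The liver call of LOC100361706 was lost without control rat F3 (log2 -1.15, adjusted p = 0.113 by edgeR), without F601, F602 or F604 (adjusted p 0.0504 to 0.0548), with library totals (0.0630), with only the groups compared (0.0520) and with limma voom (0.155). Cyp2e1, which fell in liver, rose by 1.11 ± 0.17 in kidney (difference -2.52 ± 0.24). Inhba, Paqr9 and Abcb11 were not called in kidney (0.13 ± 0.31, -0.03 ± 0.15 and 0.99 ± 0.36). Vnn1 (1.78 ± 0.19), Cpt2 (0.59 ± 0.11), Ugt2b7 (2.74 ± 0.26) and Krt8 (0.89 ± 0.13) rose in kidney as well as in liver. Amino acid catabolism, with 36 of 42 probes fallen in liver, had 9 risen and 1 fallen in kidney. C4a and Apcs fell in kidney too (-1.82 ± 0.21 and -1.43 ± 0.20), as did Col3a1 (-1.44 ± 0.21).

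**Figure D5:**
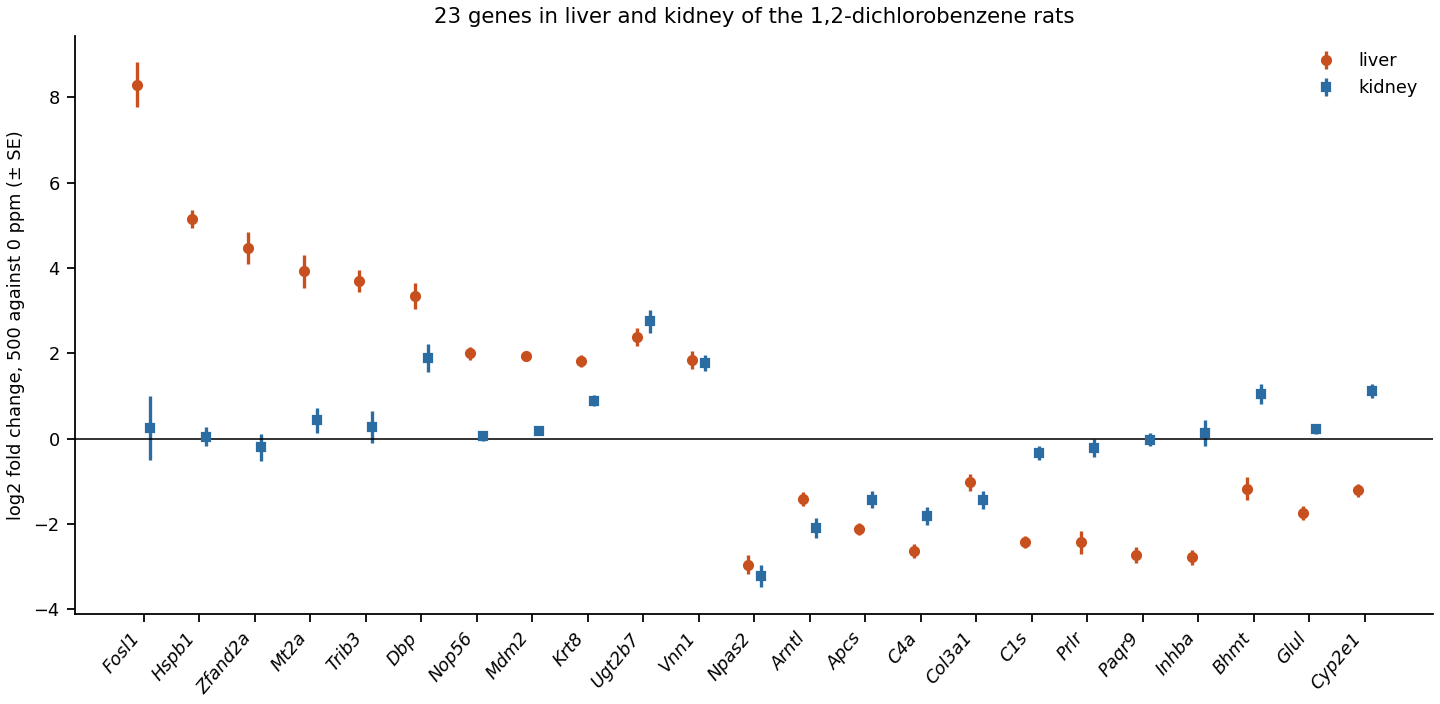
Log2 fold change at 500 against 0 ppm with its standard error for 23 genes in liver (orange circles, fit of the 40 liver libraries) and kidney (blue squares, joint fit of liver and kidney). Fosl1, Hspb1, Zfand2a and Mt2a lie above 3 in liver and below 1 in kidney, Npas2, Arntl, Apcs and C4a lie below 0 in both organs, and Bhmt and Cyp2e1 lie on opposite sides.

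A few genes with large changes fall outside the lists. LOC102549726 rose 3.79-fold, with 36.9 to 74.96 CPM against 12.3 to 18.7 CPM, and RGD1307603 fell 4.37-fold, with 69.3 to 157 CPM against 419 to 569 CPM; the names used here give no function for either. All 5 rats were outside the control range for both.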

How the data were processed

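The values are raw read counts per probe that the authors deposited after adjusting for attenuation, the dilution of detector oligos for abundant transcripts; per the submitters' processing notes, reads were aligned with Bowtie 1.3.1. In 104 probes all counts are multiples of one whole number between 3 and 10. Counts were tested with edgeR 4.0.16 (R 4.3.3; filterByExpr, TMM, robust quasi-likelihood fit, Benjamini-Hochberg) on 40 liver libraries in 7 concentration groups; CPM are TMM-scaled. Liver was compared with kidney in a joint fit (1 control kidney marked as failing was left out). Liver and kidney come from the same animals, and deviations from group means correlated at 0.026 to 0.280 over 39 rats. Alternatives used DESeq2 1.42.0, limma 3.58.1, other scalings and filters, and each rat left out. Members and lists were chosen with earlier results of these data known. Named genes were the 12 largest rises and falls at 20 CPM or more outside the lists left aside, up to 6 called genes per list by smallest p, other list members as examples, the 5 largest differences between concentrations and, with and without the 20 CPM minimum and the lists left aside, between organs (the minimum and the lists were added there after the values were seen), and opposite calls at 250 ppm. Some genes that these rules select are not reported here. Code was tested on simulated data. The p-values set group differences against the spread between rats within groups, estimated over all groups of a fit. The main joint fit took the liver and kidney of a rat as separate libraries. Promoters of the RefSeq table are in GRCr8, and genes were matched by symbol.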

Additional observations from a re-analysis of the deposited data

Results flagged for a closer look

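In 31 of 328 groups of rats tested over the genes named, 1 animal stood apart from the rest of its group on the log2 scale, as measured by its gap to the nearest rat as a share of the group's range; chance flags about 1 group in 20. Control rat F8 was the highest control for 5 probes and the lowest for 4. It was highest for Cp (0.590), Cyp2e1 (0.517), Cfi (0.511), Hsp90aa1 (0.506) and Dbp (0.486). It was lowest for Rup2 (0.644), one Aldoa probe (0.603), Ugt2b7 (0.536) and Rpl19 (0.4931). Without this rat 1367 probes were called between 500 and 0 ppm, and 36 of the 1368 main calls were lost. Among the other controls, F1 was highest for Maff (0.682) and lowest for Hspa8 (0.487), F7 highest for Tnfrsf12a (0.610) and lowest for Slc1a2 (0.478), and F2 highest for Egr1 (0.491) and Atf3 (0.485). F5 was the lowest control for Oas1a (0.517) and RT1-S3 (0.477), control rat F9 for Asns (0.512), and F6 was the highest for Lgals3 (0.469), as was F3 for LOC100361706 (0.580).

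At 500 ppm, F605 was the highest for Tnfrsf12a (0.914), Rup2 (0.817), Maff (0.769), Klf6 (0.739), Slc2a1 (0.728) and Olr59 (0.713) and the lowest for Apoa1 (0.888) and S100a10 (0.756). F601 was the highest for Srd5a1 (0.893), Dpys (0.789) and Ghr (0.781), each a gene that fell, so that it lay nearest to the controls.

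The liver change at 500 ppm differed from the kidney change by a test of the difference in the joint edgeR fit. Among probes called in liver, with no minimum level, large differences in log2 fold change that passed were 7.85 for Fosl1, 6.72 for Ube2t, 6.72 for Abcb1b, 5.67 for Cyp2b1 and 5.57 for Lgals4, and -4.96 for Sult1c3, -3.59 for LOC100361706 and -3.41 for Olr59. Among genes at 20 CPM or more outside the lists left aside, such differences were also 4.90 for Hspb1, 4.85 for Fabp2, 4.46 for Zfand2a and 3.31 for Mt2a, and -3.11 for Inhba, -2.90 for Paqr9, -2.52 for Cyp2e1 and -2.51 for Abcb11.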

How the results depend on the processing

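The count of 1368 probes called between 500 and 0 ppm lay between 1289 (without F604) and 1367 (without control F8) when each rat was left out, with 0 changes of sign among the calls. It was 1381 with DESeq2, 1391 with limma voom, 1414 with library totals and 1291 with only the 2 groups. Requiring a mean of 20 CPM left 489 probes, of which 4.0e+02 (to 2 significant digits) were called. The same filter gave 339 against 1065 for 500 and 250 ppm and 596 against 1039 for liver minus kidney, with fewer probes tested. With this filter TMM factors were computed anew on the probes kept. The log2 fold changes of Tf, Hnf4a and Ass1 moved together, from -0.55, -0.61 and -0.38 to -0.19, -0.24 and -0.0001. Leaving out rats gave 977 to 1098 and 938 to 1033. The pairing of organs by rat was fitted as a block and gave 1033 probes for liver minus kidney. Scaling by library totals moved the median log2 fold change from 0.03 to 0.44 and the share of risen among called probes from 51.7% to 71.9%. With library totals the log2 fold change of Fos turned from -0.23 to 0.16 and that of Ass1 from -0.38 to 0.0100, along with the shift of the median over all probes. That of Fos was also 0.22 without control F6, 0.03 without F602, 0.10 without F604 and -1.05 without F605. The cause of these moves of Fos was not tested. Probes under 1 CPM rest on few counts, and without molecular identifiers a PCR read is no independent molecule.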

Other observations

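Several gene lists are not described above. The counts with library totals follow in brackets, risen first, to be read against 1017 risen and 397 fallen of 2019 probes. Of 14 hypoxia probes 8 rose and 4 fell (9 and 1), of 14 glycolysis probes 6 rose and 4 fell (6 and 2), and of 24 MAP kinase and PI3K signalling probes 11 rose and 6 fell (15 and 2), of which 3 fell without F605. Autophagy and lysosome genes rose in 6 of 19 probes and fell in 5 (12 and 2), near the shares over all probes, and of 9 glucocorticoid and metallothionein probes 4 rose and 3 fell (4 and 3). Mitochondrial respiration genes rose in 6 of 16 probes and fell in 2 (11 and 0; 1 fell without F605), and iron and heme genes fell in 5 of 10 (3 without F604) and rose in 1 (2 and 2; 2 rose without F602). Of 11 oncofetal and progenitor probes 6 rose and 1 fell (6 and 1), with the share of risen probes again read against 35% over all probes.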
